A study of Homo sapiens with 17 samples.

Results

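The genes described here are those that carry glucose into the cell, break it down to pyruvate and lactate, or store it as glycogen: 39 genes of the 27315 named in the deposited table, chosen by symbol, with earlier results of these data known. Of these, 37 were expressed well enough to be tested, among 12484 tested genes. The aldolase ALDOC and the fructose bisphosphatase FBP1, an enzyme of glucose synthesis, were too low: ALDOC lay between 5.21 and 6.23 and FBP1 between 5.10 and 5.43 in the 17 libraries, where the floor of the scale is 5.14.

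The cells were 786-O, an established line from a human clear cell renal carcinoma, with no functional VHL, and every group, controls included, shares that background. RNA-seq was done after lentiviral delivery of Cas9 with a single guide RNA from a pLenti CRISPR-V2 puro vector, and antibiotic selection. In the HIF2a experiment the groups were HIF2a sg4 and HIF2a sg6, a pair of guides against HIF2a (gene EPAS1), and a scrambled-guide control, HIF2a sgscr, with 3 libraries each. In the USP37 experiment the groups were USP37 sg3 and USP37 sg9, a pair of guides against the deubiquitinase USP37, with 3 libraries each, and USP37 sgscr, a separate scrambled control with 2 libraries numbered 2 and 3. The series title concerns deubiquitination of HIF2a by USP37, so the comparisons ask how these transcripts differ when either gene is targeted. All cells came from 1 line, and whether libraries of a group came from separate cultures is not stated in the labels, so the p-values cover the spread among these libraries, which may be technical.

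Glucose enters through GLUT transporters, is trapped by hexokinase, and is committed to glycolysis by phosphofructokinase, whose activity is set by fructose bisphosphate regulators of the PFKFB family. Pyruvate is then reduced to lactate and exported, or enters mitochondria, where pyruvate dehydrogenase kinases limit its use. In cells without VHL, HIF alpha subunits escape degradation, and many genes of this pathway are known HIF targets, more often described for HIF1A than for HIF2A. TXNIP and ARRDC4, arrestin-domain proteins that lower glucose uptake, are induced by sugar phosphates through MondoA and its partner MLX.

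The authors' values are variance-stabilised and batch-corrected, on a scale close to log2, so a difference of 1 is about a doubling, and more than that for weakly expressed genes. A gene is called higher or lower where limma's moderated test, adjusted over all 12484 genes by the Benjamini-Hochberg method, gave a p under 0.05. The depth of the libraries is unknown. EPAS1 averaged 11.91 in its control, 9.54 with sg4 and 10.34 with sg6, and USP37 averaged 9.24, 8.33 with sg3 and 8.13 with sg9. Each target was also lower when the other was targeted: EPAS1 was at -0.72 with the USP37 guides (limma adjusted p = 6.6e-05) and USP37 at -0.44 with the HIF2a guides (limma adjusted p = 0.00903). Libraries 2 and 3 of HIF2a sg6 and library 2 of HIF2a sgscr lay furthest from their group means and are called the 3 outlying libraries below (median absolute deviation 0.0946 to 0.125, against 0.0597 to 0.0894 in the other 14). Without them HIF2a sg6 keeps 1 library, and without either USP37 sgscr library that control keeps 1, so those fits take the lone library to vary like the other groups. Of 12 renal tubule and clear cell carcinoma markers, 11 passed the filter on low values and EMX2 was at the floor, while of 12 markers of 293T packaging cells, leukocytes and endothelium only SOX2 and CD68 did. Of the 11 renal markers 3 were called higher and 4 lower with the HIF2a guides, CDH6 (1.31) and MME (-1.09) the most. With the USP37 guides 5 were called higher and 5 lower, CDH16 (-1.76) and GGT1 (-1.38) the most. Of all tested genes, 30.6% were called with the HIF2a guides and 44.3% with the USP37 guides. CD68 was higher with the USP37 guides (0.45, limma adjusted p = 0.00106). Below the filter, the endothelial marker PECAM1 lay between 5.58 and 5.78 in the HIF2a control and between 6.28 and 6.63 with its guides, and the monocyte marker CD14 between 5.44 and 5.79 and between 6.03 and 6.43, while the defining endothelial markers CDH5 and VWF reached at most 5.49. The part of these shifts in the results was not tested. In USP37 sgscr library 3, PTPRC and CD3E, markers of leukocytes, were at 6.68 and 6.78, and in the other 16 libraries they reached at most 5.53 and 5.25. The part of that library in each call is given below where the call ended without it.

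With the HIF2a guides, 11 of the 37 tested genes rose, 9 fell and 17 were not called, so 54.1% were called, where 30.6% of all tested genes were (16.1% higher and 14.5% lower). The median of the 37 differences was 0.025, against -0.00454 over all tested genes, and the range ran from -1.93 to 1.49. With the USP37 guides 7 rose, 14 fell and 16 were not called, or 56.8%, where 44.3% of all tested genes were called (22.4% higher and 21.9% lower). Their median was -0.168, against 0.00599 over all tested genes, and the range ran from -1.49 to 0.55. The count of 7 higher dropped to 3 without USP37 sgscr library 2 and to 2 without library 3, each leaving 1 control library, while the count of lower genes lay between 11 and 16 when any 1 library was left out. No call in either comparison changed its sign under any of 28 alternatives. With the HIF2a guides 14 of the 20 calls held under every alternative that tested the gene, and with the USP37 guides 11 of the 21. PDK4, among the 14, was too low to be tested under the stricter filter on low values. The calls that did not hold were PFKL, PGK1, ENO1, LDHA, SLC16A3 and PCK2 with the HIF2a guides, and SLC2A3, GPI, PFKFB2, GAPDH, PKM, LDHA, LDHB, SLC16A3, PCK2 and ARRDC4 with the USP37 guides.

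**Figure D1:**
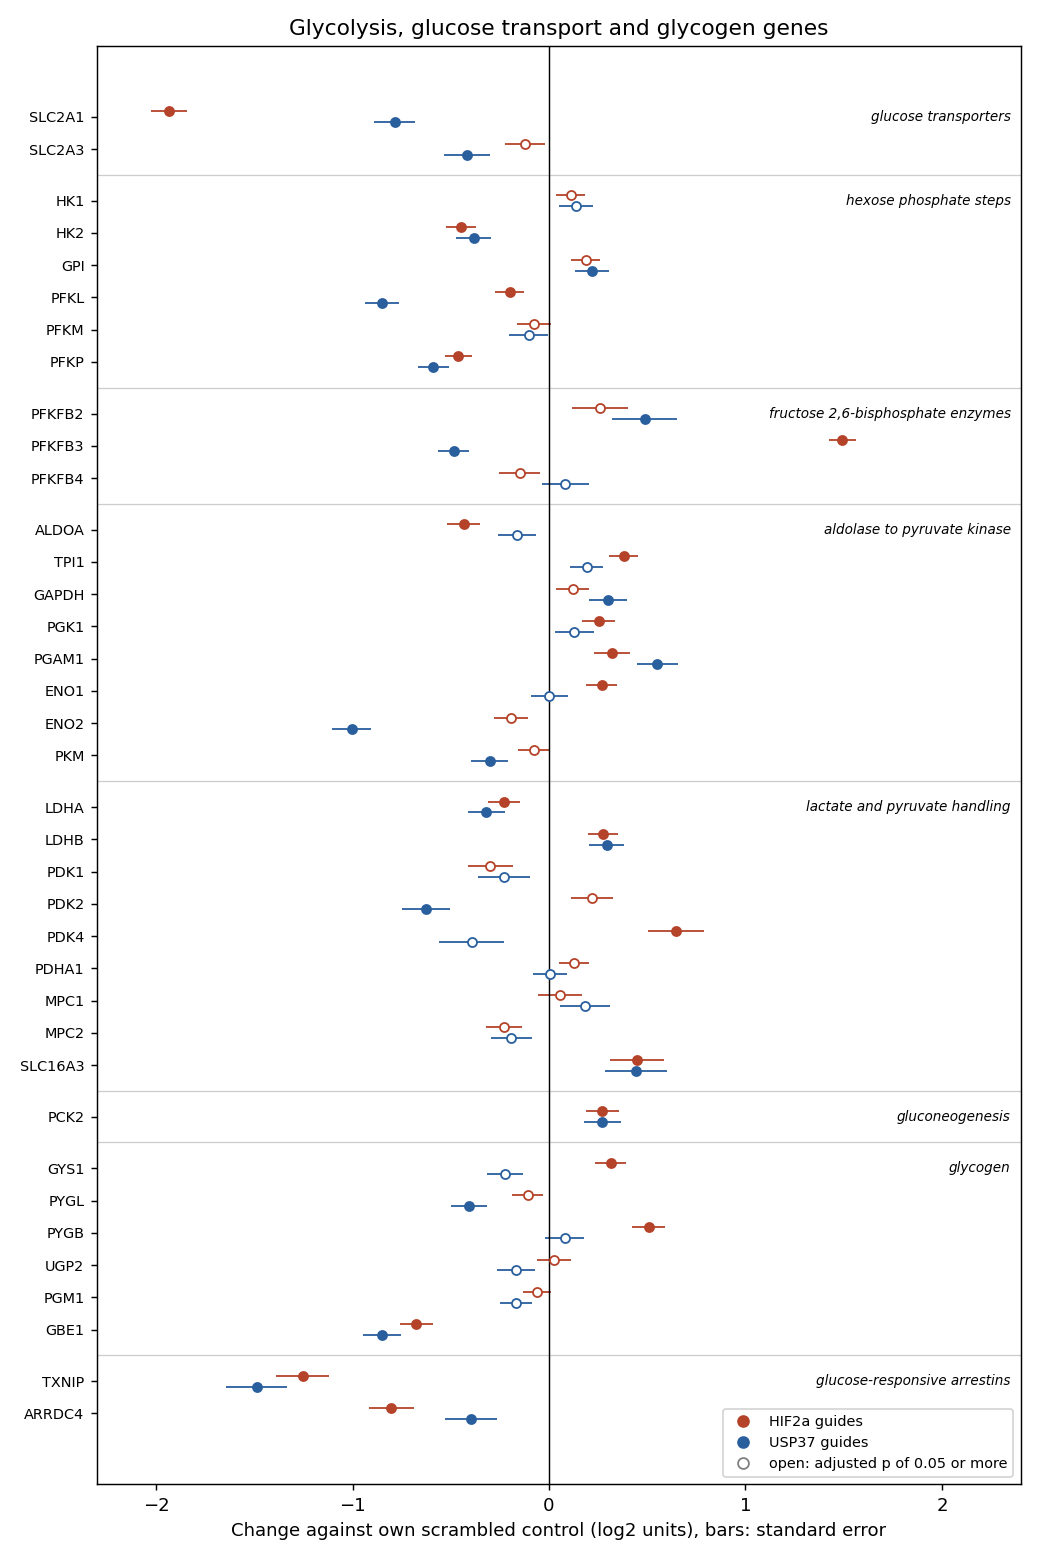
Change of the 37 tested genes with the HIF2a guides (red) and the USP37 guides (blue) against their own scrambled control, in log2 units with the standard error, grouped by role from glucose transport at the top to the arrestin-domain genes at the bottom. Filled points have an adjusted p under 0.05; SLC2A1 lies furthest to the left and PFKFB3 furthest to the right in the HIF2a experiment, while TXNIP lies furthest to the left in the USP37 experiment.

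Among the glucose transporters, SLC2A1 encodes GLUT1, the transporter that brings glucose into most cells under basal conditions. Its values were 14.13, 14.01 and 14.15 in the HIF2a control, 12.20, 12.13 and 12.17 with sg4 and 12.29, 12.22 and 11.96 with sg6. The 6 guide libraries lay well below the 3 controls, and the libraries of sg4 and sg6 overlapped, although EPAS1 mRNA itself was lower with sg4. With USP37 targeted the values were 14.02 and 14.00 in the control, 13.60, 13.25 and 13.28 with sg3 and 13.26, 12.95 and 13.02 with sg9. Both guides again lay below every control library, but above every HIF2a guide library. The transcript was 3.82-fold lower with the HIF2a guides and 1.72-fold lower with the USP37 guides. The difference between these effects was 1.15 (SE 0.14, limma adjusted p = 1.74e-06), and the scrambled controls of the experiments were not called different (-0.08, limma adjusted p = 0.608). sg9 lay lower than sg3 (-0.30, limma adjusted p = 0.0344), a call that ended without sg3 library 1 (-0.19, adjusted p = 0.21), sg9 library 2 (adjusted p = 0.142) or sg9 library 3 (adjusted p = 0.104).

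SLC2A3 encodes GLUT3, a transporter of high affinity best known in neurons. It was not called with the HIF2a guides (-0.12) and was lower with the USP37 guides at -0.42 (SE 0.12, limma adjusted p = 0.00686). That call ended without USP37 sgscr library 2 (-0.29, limma adjusted p = 0.169), and reads of SLC2A3 and its near copy SLC2A14 may have been shared between them.

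From hexokinase to phosphofructokinase, of 6 genes 3 fell and none rose with the HIF2a guides (50%, against 30.6% of all tested genes). The USP37 guides lowered 3 and raised 1 (66.7%, against 44.3%). HK2, the inducible hexokinase that binds mitochondria, fell by 0.45 (SE 0.08, limma adjusted p = 0.000112) and by 0.38 (SE 0.09, limma adjusted p = 0.00157) in the means of the guides. For HK2, neither HIF2a sg6 alone (-0.16, limma adjusted p = 0.183) nor USP37 sg3 alone (-0.25, limma adjusted p = 0.056) was called. The constitutive hexokinase HK1 was called in the mean of neither pair (0.11 and 0.14). GPI, which converts glucose phosphate to fructose phosphate, was at 0.19 in the mean of the HIF2a guides without a call, although sg6 alone was called (0.29, limma adjusted p = 0.0136). It was called with the USP37 guides at 0.22 (limma adjusted p = 0.0418). The GPI call ended without any 1 of 7 libraries: USP37 sgscr 2 or 3, sg3 library 3, sg9 library 1 or 3, and HIF2a sg4 library 2 or 3 (adjusted p from 0.0516 to 0.229).

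Phosphofructokinase, the committed step, is built from liver (PFKL), muscle (PFKM) and platelet (PFKP) subunits. PFKP was at 13.38, 13.47 and 13.41 in the HIF2a control, 12.91, 12.83 and 12.97 with sg4 and 13.05, 13.05 and 12.96 with sg6. In the other experiment it was at 13.33 and 13.30 in the control, 12.91, 12.72 and 12.80 with sg3 and 12.76, 12.61 and 12.57 with sg9. No guide library reached the controls in either experiment, and the changes were -0.46 (SE 0.07, limma adjusted p = 2.33e-05) and -0.59 (SE 0.08, limma adjusted p = 7.41e-06). The effects were not called different from each other (-0.13, limma adjusted p = 0.36), and neither were the controls (-0.11, limma adjusted p = 0.353).

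PFKL separated the experiments. In the USP37 experiment PFKL went from 11.77 and 11.67 in the control to 10.97, 10.76 and 10.79 with sg3 and 11.04, 10.88 and 10.78 with sg9. Every guide library lay below both controls, and the fall of 0.85 (SE 0.09, limma adjusted p = 2.13e-07) was 1.80-fold. In the HIF2a experiment the values were 11.94, 11.97 and 11.97 in the control, 11.56, 11.48 and 11.56 with sg4 and 11.87, 11.99 and 12.09 with sg6. The sg4 libraries were low, while the sg6 libraries spanned the controls, and sg6 lay 0.45 above sg4 (limma adjusted p = 0.00236). That difference was 0.34 without the 3 outlying libraries and no longer called (adjusted p = 0.12), with 1 sg6 library remaining. The mean of both HIF2a guides (-0.20, limma adjusted p = 0.0475) lost its call when any 1 of 12 of the 17 libraries was left out (adjusted p from 0.0523 to 0.119), 7 of them in the HIF2a experiment. The USP37 effect was lower than the HIF2a effect by 0.65 (limma adjusted p = 0.000157). PFKM was called in neither experiment (-0.08 and -0.10).

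The PFKFB enzymes make and remove fructose 2,6-bisphosphate, the strongest activator of phosphofructokinase. PFKFB3, whose kinase activity far exceeds its phosphatase activity, stood out among the 37 genes: it was the only one called in opposite directions by the HIF2a and the USP37 guides, as were 851 of all 12484 genes. In the HIF2a control it was at 11.00, 10.96 and 10.99, with sg4 at 12.36, 12.31 and 12.34 and with sg6 at 12.55, 12.56 and 12.73. All 6 guide libraries lay above the controls by more than a log2 unit, a 2.81-fold rise. In the USP37 control it was at 11.91 and 11.83, with sg3 at 11.37, 11.28 and 11.34 and with sg9 at 11.51, 11.52 and 11.31. These guide libraries lay below their own controls but above all 3 HIF2a controls, and the scrambled controls themselves differed by 0.89 (SE 0.09, limma adjusted p = 2.77e-07). Against its own control the transcript fell 1.40-fold (-0.48, SE 0.08, limma adjusted p = 6.16e-05), and the effects differed by -1.98 (SE 0.11, limma adjusted p = 1.12e-11). The HIF2a guide libraries, from 12.31 to 12.73, also lay above both USP37 control libraries.

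The stretch just before the second of the RefSeq starts of PFKFB3 is printed because it is the member that rose most with the HIF2a guides. It covers positions -250 to -67 from the start, GRCh38.p14 chr10:6202682-6202865 on the plus strand, lies upstream of the annotated starts that follow it and in an intron of transcripts that start further upstream, and capitals mark the E-box CACGTG, which holds the HIF core ACGTG on both strands.

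PFKFB3: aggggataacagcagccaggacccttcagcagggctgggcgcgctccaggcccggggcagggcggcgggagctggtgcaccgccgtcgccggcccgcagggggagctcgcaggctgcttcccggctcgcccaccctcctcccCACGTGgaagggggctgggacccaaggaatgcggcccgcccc

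The E-box begins at position -108. Over the 250 bases before each RefSeq start, on both strands, ACGTG was found in 18.5% of 35116 windows and CACGTG in 6.34%. By gene, ACGTG was in 21.7% of all 27305 genes with a window, tested here or not, and in 20 of the 37 members with a window (54.1%). The share over tested genes alone was not taken. CACGTG was in 7.73% of the 27305 genes and in 8 of 37 members (21.6%): HK2, PFKFB3, ALDOA, ALDOC, GAPDH, LDHA, PDK2 and ARRDC4. Members had more windows each (1.92) than genes in general (1.29), and these 8 did not move together: with the HIF2a guides PFKFB3 rose, HK2, ALDOA, LDHA and ARRDC4 fell, GAPDH and PDK2 were not called, and ALDOC was not tested. The SLC2A1 window held neither motif, nor GCGTG, the other form of the HIF core.

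PFKFB2, the isoform of heart and kidney, was at 0.26 with the HIF2a guides without a call and at 0.49 (SE 0.17, limma adjusted p = 0.021) with the USP37 guides. Without USP37 sgscr library 3 the value was 0.21 (adjusted p = 0.462). PFKFB4, another known hypoxia-responsive isoform, was not called in the mean of either pair of guides (-0.15 and 0.08). Its HIF2a guides differed from each other, at 0.15 with sg4 and -0.45 with sg6 against the control (difference -0.60, limma adjusted p = 0.00258), a call that ended without the 3 outlying libraries (-0.53, adjusted p = 0.072), which leaves sg6 with 1 library.

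**Figure D2:**
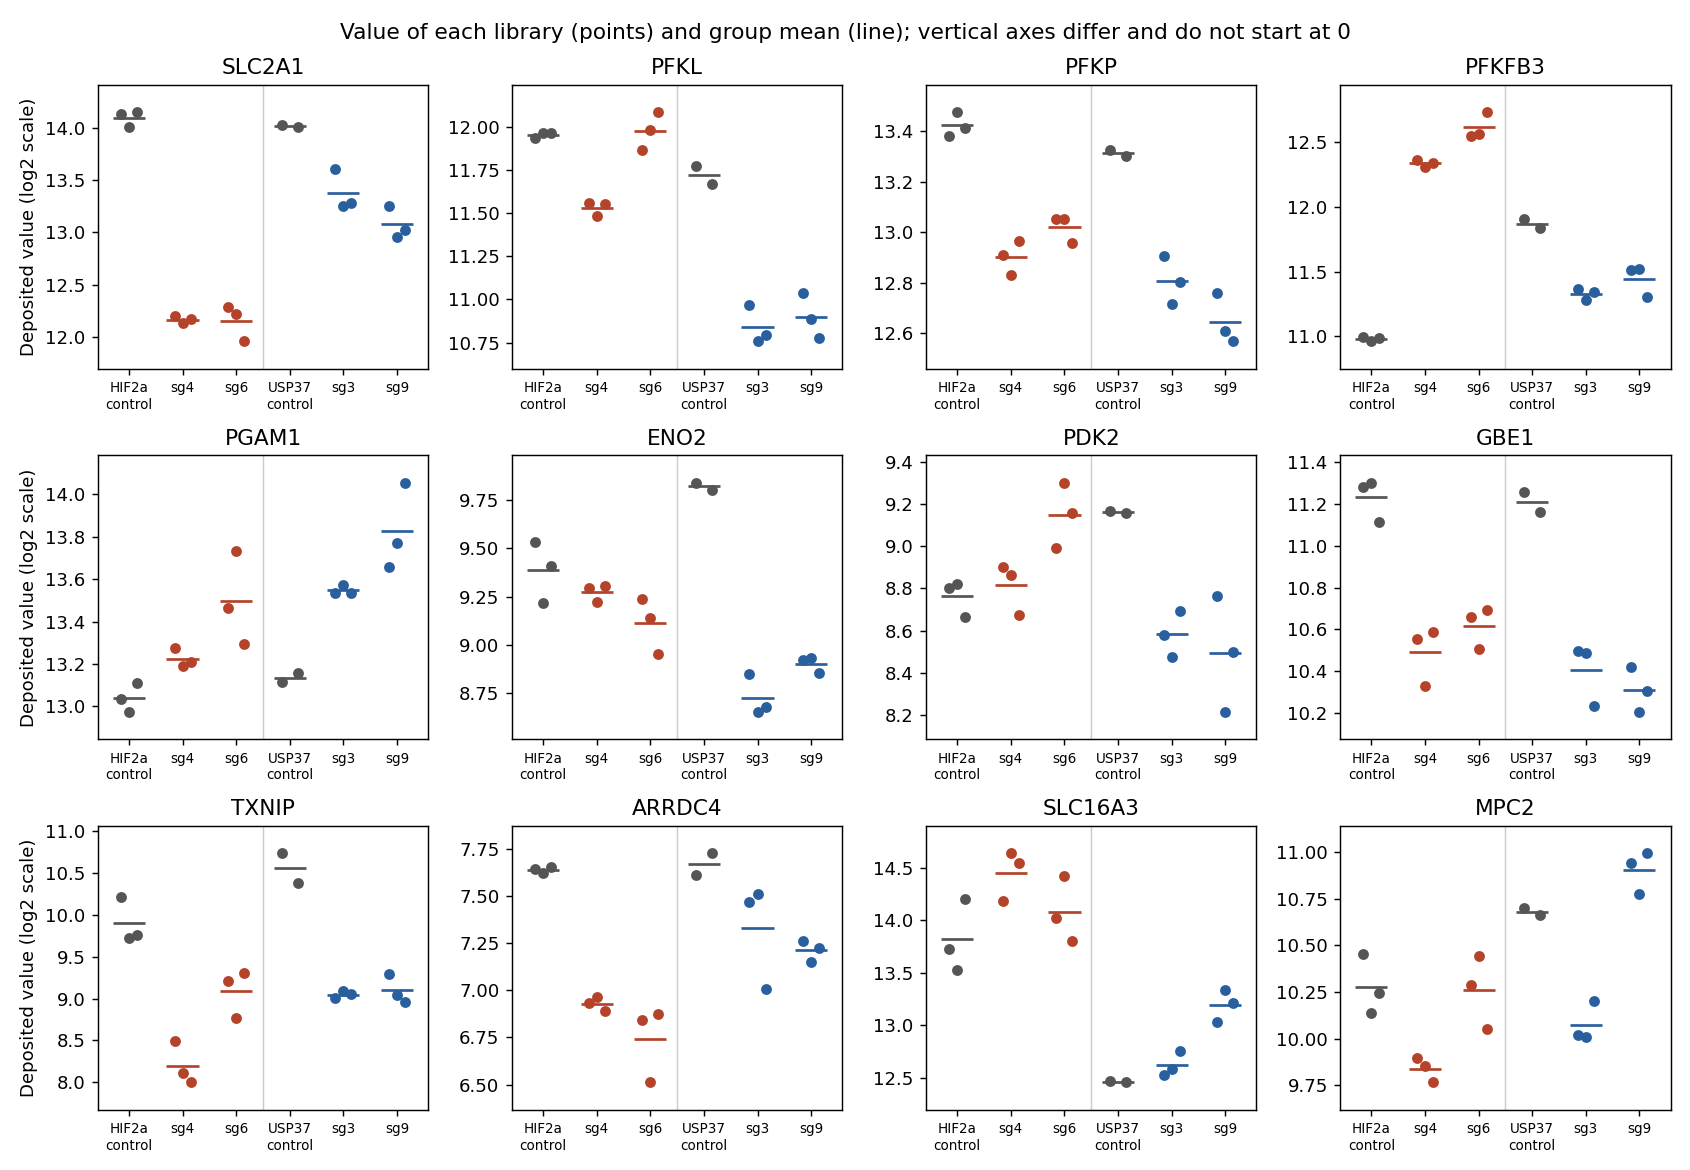
Deposited log2-scale values of 12 genes in each of the 17 libraries (points) with the group means (bars), for the HIF2a control, sg4 and sg6 and the USP37 control, sg3 and sg9; each panel has its own vertical range. PFKFB3 guide libraries lie above the HIF2a control and below the USP37 control, SLC2A1, PFKP, GBE1, TXNIP and ARRDC4 guide libraries lie below the control in both, and SLC16A3 differs between the controls; SLC16A3 and MPC2 were added after their values were seen.

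From aldolase to pyruvate kinase, of 8 tested genes 4 rose and 1 fell with the HIF2a guides (62.5%, against 30.6% of all tested genes). The USP37 guides raised 2 and lowered 2 (50%, against 44.3%). PGAM1, the phosphoglycerate mutase of most tissues, was at 13.04, 12.97 and 13.11 in the HIF2a control, 13.27, 13.19 and 13.21 with sg4 and 13.47, 13.73 and 13.29 with sg6. It was at 13.12 and 13.16 in the USP37 control, 13.53, 13.57 and 13.53 with sg3 and 13.66, 13.77 and 14.05 with sg9. Guide libraries lay above the controls in both experiments, further so with the USP37 guides, and the rises were 0.32 (SE 0.09, limma adjusted p = 0.00962) and 0.55 (SE 0.10, limma adjusted p = 0.000254). These were not called different from each other (0.23, limma adjusted p = 0.194), and the mean of the HIF2a guides was called although sg4 alone was not (0.18, limma adjusted p = 0.214).

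ENO2, the neuronal enolase and a gene commonly raised in clear cell carcinoma, was at 9.84 and 9.80 in the USP37 control, 8.85, 8.65 and 8.68 with sg3 and 8.92, 8.93 and 8.85 with sg9. The groups were far apart, a 2.01-fold fall (limma adjusted p = 1.49e-07, SE 0.10 on the log2 scale). In the HIF2a experiment it was at 9.53, 9.22 and 9.41 in the control, 9.30, 9.22 and 9.30 with sg4 and 9.24, 9.14 and 8.95 with sg6, and these groups overlapped. The mean of the HIF2a guides was not called (-0.19, limma adjusted p = 0.0978), except without HIF2a sgscr library 2 (-0.28, adjusted p = 0.0345). HIF2a sg6 alone was called lower (-0.27, limma adjusted p = 0.0427). The effects differed by -0.81 (limma adjusted p = 6.45e-05), and the USP37 control lay 0.43 above the HIF2a control (limma adjusted p = 0.00399).

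The remaining genes of these steps moved by under 0.5 log2 units. With the HIF2a guides, aldolase ALDOA fell (-0.43, SE 0.09, limma adjusted p = 0.000471), and triosephosphate isomerase TPI1 rose (0.38, SE 0.07, limma adjusted p = 0.00039), both with each guide alone. Enolase ENO1 (0.27, limma adjusted p = 0.014) and phosphoglycerate kinase PGK1 (0.25, limma adjusted p = 0.0275) rose as well. The ENO1 call ended without HIF2a sgscr library 1 (adjusted p = 0.0957) or 3 (adjusted p = 0.0583), and the PGK1 call ended without HIF2a sgscr library 2 (0.20, adjusted p = 0.141). GAPDH and pyruvate kinase PKM were not called there (0.12 and -0.08), although PKM was lower once the libraries were quantile normalized (-0.26, adjusted p = 0.00617). The USP37 guides left GAPDH higher (0.30, limma adjusted p = 0.0174) and PKM lower (-0.30, limma adjusted p = 0.0125). ALDOA (-0.16), TPI1 (0.19), PGK1 (0.13) and ENO1 (0.00) were not called in the mean of these guides. With USP37 sg9 alone, TPI1 (0.36, limma adjusted p = 0.00379) and PGK1 (0.35, limma adjusted p = 0.0123) were called higher. The GAPDH call ended with quantile normalization (0.14, adjusted p = 0.195) and without USP37 sgscr library 2 (adjusted p = 0.138) or 3 (adjusted p = 0.0739), and the PKM call without library 3 (adjusted p = 0.146). Most of these genes, PGAM1 and the lactate dehydrogenases below have processed pseudogenes or close copies, and how reads were assigned among them is not given in the sources used here.

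Among the genes that handle lactate and pyruvate, 9 in number, 3 rose and 1 fell with the HIF2a guides (44.4%, against 30.6% of all tested genes). The USP37 guides raised 2 and lowered 2 (44.4%, near the 44.3% of all tested genes). The lactate dehydrogenase subunits moved apart in the means of the guides in both experiments. LDHA, the muscle subunit that favours lactate production, was at -0.23 and -0.32, and LDHB, the heart subunit, at 0.28 and 0.29. The limma adjusted p-values of these means were 0.0349 and 0.0087 for LDHA and 0.00796 and 0.00971 for LDHB. Of the single guides, only USP37 sg3 was called for LDHA (-0.39), and only HIF2a sg6 (0.48) and USP37 sg9 (0.44) for LDHB. LDHB was at 0.07 with HIF2a sg4 and at 0.15 with USP37 sg3. The LDHA call ended in the HIF2a experiment when any 1 of 6 of its libraries was left out, namely each control, sg4 library 2 or 3 or sg6 library 3 (adjusted p from 0.0540 to 0.150). With the USP37 guides it ended without sgscr library 3 (adjusted p = 0.118), and LDHB without sgscr library 2 (adjusted p = 0.163).

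SLC16A3 encodes MCT4, the lactate exporter of highly glycolytic cells, and its largest contrast was between the scrambled controls. Its values were 13.72, 13.53 and 14.20 in the HIF2a control and 12.47 and 12.46 in the USP37 control, 1.36 lower in the latter (SE 0.18, limma adjusted p = 5.58e-06). With the guides they were 14.18, 14.63 and 14.54 with HIF2a sg4, 14.02, 14.42 and 13.80 with HIF2a sg6, 12.53, 12.58 and 12.76 with USP37 sg3 and 13.03, 13.34 and 13.21 with USP37 sg9. HIF2a control library 3 lay within the guide libraries, whereas all 6 USP37 guide libraries lay above their controls. Against its control the mean of the HIF2a guides was 0.45 (SE 0.14, limma adjusted p = 0.0159) and that of the USP37 guides 0.44 (SE 0.16, limma adjusted p = 0.0262), and neither call was kept throughout. The first ended with chromosome medians taken out (0.31, adjusted p = 0.0777), without HIF2a sgscr library 1 (adjusted p = 0.0851) or 2 (0.30, adjusted p = 0.133) and without the 3 outlying libraries (0.27, adjusted p = 0.114). The second ended without sgscr library 2 or 3, sg3 library 3 or sg9 library 2 (adjusted p from 0.0510 to 0.128), and sg9 lay 0.57 above sg3 (limma adjusted p = 0.00979).

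Pyruvate dehydrogenase kinases switch off the enzyme that sends pyruvate into the citric acid cycle. PDK2 was at 9.17 and 9.16 in the USP37 control, 8.58, 8.48 and 8.69 with sg3 and 8.77, 8.21 and 8.50 with sg9. All guide libraries lay below the controls, a 1.55-fold fall (-0.63, SE 0.12, limma adjusted p = 0.000357). In the HIF2a experiment it was at 8.80, 8.82 and 8.67 in the control, 8.90, 8.87 and 8.67 with sg4 and 8.99, 9.30 and 9.16 with sg6, where sg4 overlapped the control and sg6 lay above it. The mean was not called (0.22, limma adjusted p = 0.13), sg6 alone was (0.39, limma adjusted p = 0.0217), and the effects of the experiments differed by -0.85 (limma adjusted p = 0.000358). The controls differed by 0.40 (limma adjusted p = 0.0241), a call that ended without HIF2a sgscr library 3 or USP37 sgscr library 2 or 3 (adjusted p 0.0792, 0.1 and 0.0967).

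PDK4, the kinase raised by fasting, rose with the HIF2a guides (0.65, SE 0.14, limma adjusted p = 0.00147) and was at -0.39 without a call with the USP37 guides, a difference of -1.04 (limma adjusted p = 0.000815). Its values were near the floor of 5.14, at 5.70, 6.22 and 5.90 in the HIF2a control and at most 6.88 in any library. Of the HIF2a guides, sg4 alone was called (0.87, limma adjusted p = 0.000395) and sg6 alone was not (0.42, limma adjusted p = 0.0598). All 6 USP37 guide libraries lay below both controls for PDK4. It was called lower with sg9 alone (-0.49, limma adjusted p = 0.0325), and for the mean of both guides with chromosome medians taken out (-0.43, adjusted p = 0.0365) and without any 1 of 3 libraries (adjusted p from 0.0215 to 0.0479). Its controls differed by 0.64, a call that ended without USP37 sgscr library 2 (adjusted p = 0.0783). PDK1, the kinase most often named as a HIF1A target, was called in neither experiment (-0.30 and -0.23), although the USP37 control lay 0.67 above the HIF2a control (limma adjusted p = 0.00119). PDHA1, a subunit of pyruvate dehydrogenase, and MPC1 and MPC2, the subunits of the mitochondrial pyruvate carrier, were called in the mean of neither pair. MPC2 showed the widest gap between USP37 guides of the 37 genes: it was at 10.70 and 10.66 in the control, 10.02, 10.01 and 10.20 with sg3 and 10.94, 10.78 and 10.99 with sg9. The sg3 libraries lay below the controls and the sg9 libraries above them, and sg9 minus sg3 was 0.83 (SE 0.10, limma adjusted p = 2.31e-05).

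For gluconeogenesis, PCK2, the mitochondrial enzyme that makes phosphoenolpyruvate, was higher with the HIF2a guides, at 0.27 (limma adjusted p = 0.0157), and with the USP37 guides, also at 0.27 (limma adjusted p = 0.0251). The first call ended with chromosome medians taken out (0.15, adjusted p = 0.199), without HIF2a sgscr library 2 (adjusted p = 0.0823) or without the 3 outlying libraries (0.16, adjusted p = 0.268), and the second without USP37 sgscr library 3 (0.19, adjusted p = 0.271). FBP1, whose loss is common in clear cell carcinoma, stayed at the floor as given above.

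Of 6 glycogen genes, 2 rose and 1 fell with the HIF2a guides (50%, against 30.6% of all tested genes). The USP37 guides lowered 2 (33.3%, against 44.3%). GBE1, the branching enzyme of glycogen, was at 11.28, 11.30 and 11.11 in the HIF2a control, 10.56, 10.33 and 10.59 with sg4 and 10.66, 10.50 and 10.69 with sg6. It was at 11.26 and 11.16 in the USP37 control, 10.50, 10.49 and 10.23 with sg3 and 10.42, 10.21 and 10.30 with sg9. Controls and guides were clearly apart in both experiments, the controls were not called apart (-0.02), and the falls of 0.68 (SE 0.09, limma adjusted p = 2.3e-06) and 0.85 (SE 0.10, limma adjusted p = 1.04e-06) were not called different (-0.18, limma adjusted p = 0.301). GBE1 lies on chromosome 3, and with the chromosome's median taken out of each library its fall with the HIF2a guides was -0.45, still called, and the difference between the effects was -0.39 (adjusted p = 0.0161).

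Glycogen synthase GYS1 rose with the HIF2a guides (0.31, SE 0.08, limma adjusted p = 0.00459) and was at -0.22 without a call with the USP37 guides, a difference of -0.54 (limma adjusted p = 0.00161). That USP37 value was called lower without sgscr library 2 (-0.37, adjusted p = 0.0214) or once chromosome medians were removed (-0.24, adjusted p = 0.042), and was at -0.08 without sgscr library 3. USP37 sg9 alone was called lower for GYS1 (-0.41, limma adjusted p = 0.00282). The glycogen phosphorylases release glucose from glycogen. Brain-type PYGB rose with the HIF2a guides (0.51, SE 0.09, limma adjusted p = 8.99e-05) and was not called with the USP37 guides (0.08), while liver-type PYGL fell with the USP37 guides (-0.41, SE 0.09, limma adjusted p = 0.00132) and was not called with the HIF2a guides (-0.11) except with chromosome medians taken out (-0.23, adjusted p = 0.0356). For PYGB the difference of the effects was -0.43 (limma adjusted p = 0.0131), lost without USP37 sgscr library 3 (-0.38, adjusted p = 0.0831), and for PYGL it was -0.30 and not called (limma adjusted p = 0.058). UGP2 and PGM1, which prepare the sugar nucleotide for glycogen synthesis, were called in neither experiment (from -0.17 to 0.03 and from -0.17 to -0.06).

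Among the arrestin-domain genes, TXNIP was at 10.22, 9.73 and 9.76 in the HIF2a control, 8.49, 8.10 and 8.00 with sg4 and 9.20, 8.77 and 9.31 with sg6. In the second experiment it was at 10.74 and 10.39 in the USP37 control, 9.01, 9.09 and 9.05 with sg3 and 9.29, 9.04 and 8.96 with sg9. Every guide library lay below every control of its experiment, and sg4 lay lowest. It was 2.39-fold lower with the HIF2a guides (-1.25, SE 0.14, limma adjusted p = 2.47e-07) and 2.81-fold lower with the USP37 guides (-1.49, SE 0.16, limma adjusted p = 2.94e-07). The effects were not called different (-0.23, limma adjusted p = 0.392), while sg6 lay 0.89 above sg4 (limma adjusted p = 0.000912). The USP37 control lay 0.66 above the HIF2a control (limma adjusted p = 0.00475), a call that ended without USP37 sgscr library 2 (0.49, adjusted p = 0.0986).

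ARRDC4, the closest relative of TXNIP in this set, was at 7.64, 7.62 and 7.65 in the HIF2a control, 6.94, 6.96 and 6.89 with sg4 and 6.84, 6.51 and 6.87 with sg6, with no overlap. In the USP37 experiment it was at 7.61 and 7.73 in the control, 7.47, 7.51 and 7.01 with sg3 and 7.26, 7.15 and 7.22 with sg9, lower throughout but by little in 2 of the sg3 libraries. The changes were -0.80 (SE 0.11, limma adjusted p = 1.22e-05) and -0.40 (SE 0.13, limma adjusted p = 0.0188), the second lost without USP37 sgscr library 2 (adjusted p = 0.0582) or 3 (adjusted p = 0.154). ARRDC4 values lay within 3 log2 units of the floor in all 17 libraries, where this scale understates a fold change.

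The stretches before the RefSeq starts of both genes are printed because both are known targets of MondoA and MLX, which bind paired E-box-like elements. A further reason is that these genes fell together in both experiments. Capitals mark every match, on either strand, to the E-box and HIF cores named above, or to a pair of CACGNG half-sites spaced by 5 bases. TXNIP is shown from position -250 to -22, GRCh38.p14 chr1:145996601-145996829 on the minus strand, and ARRDC4 from -250 to -6, GRCh38.p14 chr15:97960453-97960697 on the plus strand, each upstream of the annotated starts.

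TXNIP: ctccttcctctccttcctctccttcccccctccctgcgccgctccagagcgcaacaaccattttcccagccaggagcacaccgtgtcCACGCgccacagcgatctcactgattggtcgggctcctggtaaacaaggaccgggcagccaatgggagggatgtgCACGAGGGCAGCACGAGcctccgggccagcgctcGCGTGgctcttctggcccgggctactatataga
ARRDC4: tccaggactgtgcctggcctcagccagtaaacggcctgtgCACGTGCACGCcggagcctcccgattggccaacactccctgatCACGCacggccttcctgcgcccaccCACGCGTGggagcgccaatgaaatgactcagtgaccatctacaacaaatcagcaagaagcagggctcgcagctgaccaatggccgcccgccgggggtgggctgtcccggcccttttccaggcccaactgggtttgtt

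The spaced element, searched for after the values were seen, matched TXNIP once, at -88, as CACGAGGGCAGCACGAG, and was found in 16 of the 35116 windows (0.0456%), with TXNIP the only member among them. ARRDC4 held no match to the spaced element, but CACGTG at -210 and GCGTG at 4 positions, and TXNIP held GCGTG at 2. GCGTG alone was found in 32.2% of windows, 36.2% of all genes with a window, tested here or not, and 23 of the 37 members with a window (62.2%). A match here is a run of letters and not a measured site.

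MondoA itself (MLXIP) fell with the HIF2a guides (-0.36, SE 0.10, limma adjusted p = 0.00606) and was not called with the USP37 guides (0.02), whereas MLX was not called with the HIF2a guides (-0.06) and rose with the USP37 guides (0.36, SE 0.10, limma adjusted p = 0.00746). The related factor ChREBP (MLXIPL) was too low to test.

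Across both experiments, 8 genes were called lower in each: SLC2A1, HK2, PFKL, PFKP, LDHA, GBE1, TXNIP and ARRDC4. A further 4 were called higher in each: PGAM1, LDHB, SLC16A3 and PCK2. That is 32.4% of the 37 genes called the same way in both, where 8.43% of all tested genes were (596 lower and 456 higher). Of these members SLC2A1, HK2, PFKP, GBE1, TXNIP and PGAM1 kept both calls under every alternative. Taken alone, HIF2a sg6 and USP37 sg3 were not called for HK2, nor HIF2a sg4 for PGAM1. PFKL, LDHA, ARRDC4, LDHB, SLC16A3 and PCK2 lost a call in at least 1 experiment under some alternative, and PFKL was at 0.02 with HIF2a sg6. The experiments have separate controls. In the means of the guides, ENO1, GYS1, PDK4, PGK1, PYGB and TPI1 were called higher and ALDOA lower with the HIF2a guides only. GAPDH, GPI and PFKFB2 were called higher and ENO2, PDK2, PKM, PYGL and SLC2A3 lower with the USP37 guides only. Single guides of the other experiment were called for some of these genes. USP37 sg9 alone was called higher for TPI1 (0.36) and PGK1 (0.35), and lower for GYS1 (-0.41) and PDK4 (-0.49). HIF2a sg6 alone was called higher for GPI (0.29) and PDK2 (0.39), and lower for ENO2 (-0.27). The difference between the effects was called for 8 of the 37 genes (21.6%, against 38.6% of all tested genes, 19.6% higher and 19% lower): SLC2A1 was less lowered by the USP37 guides, and PFKFB3, PDK4, PDK2, ENO2, PFKL, GYS1 and PYGB were lower or less raised with them. For the other genes called in 1 experiment only, the difference itself was not called.

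Taken singly, HIF2a sg4 raised 5 genes and lowered 9 (37.8%, against 25.3% of all tested genes, 13.2% higher and 12.1% lower), and sg6 raised 10 and lowered 8 (48.6%, against 29%, 15.2% higher and 13.8% lower). USP37 sg3 raised 3 and lowered 12 (40.5%, against 35.2%, 16.8% higher and 18.4% lower), and sg9 raised 8 and lowered 15 (62.2%, against 47.8%, 24.6% higher and 23.2% lower). With the HIF2a guides, 8 genes were called the same way by each guide alone (21.6%, against 16.5% of all tested genes, 9.04% higher and 7.48% lower): PFKFB3 and TPI1 higher, and SLC2A1, TXNIP, ARRDC4, GBE1, PFKP and ALDOA lower. With the USP37 guides there were 11 (29.7%, against 24.8%, 11.4% higher and 13.4% lower): PGAM1 higher, and ENO2, GBE1, PDK2, PFKFB3, PFKL, PFKP, PKM, PYGL, SLC2A1 and TXNIP lower. No gene was called in opposite directions by the guides of a pair, and MPC2 was at -0.61 and 0.22 with USP37 sg3 and sg9, of which only the first was called. All 6 guide libraries lay outside the range of the 3 HIF2a controls, on the same side, for 13 genes (5 above and 8 below, where 25.2% of all tested genes did so, 13.1% above and 12.1% below). In the USP37 experiment, with 2 controls, they did so for 19 genes (5 above and 14 below, where 41.2% of all tested genes did so, 20% above and 21.2% below).

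**Figure D3:**
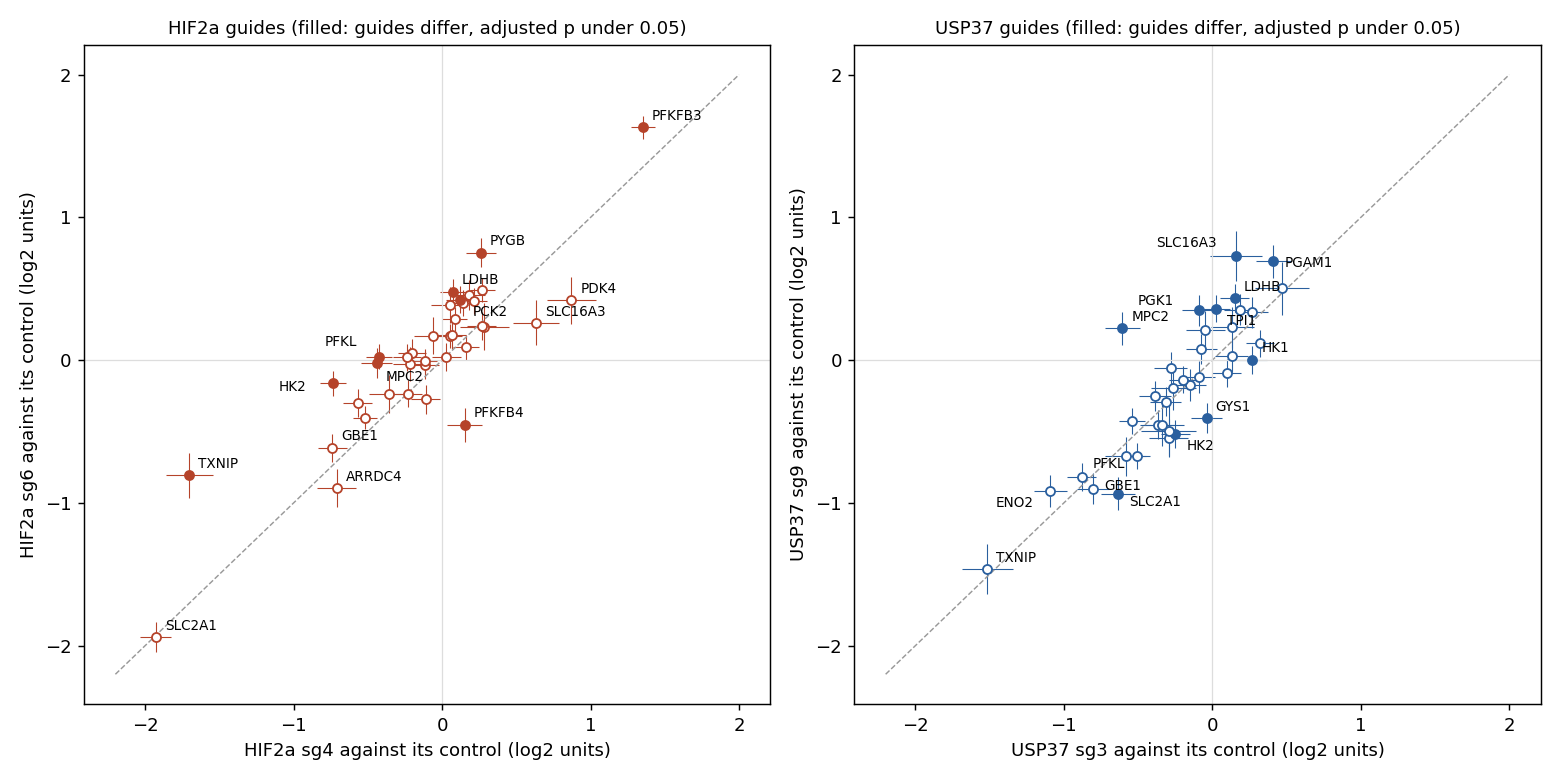
Change with one guide (horizontal axis) against change with the other guide of the same gene (vertical axis), in log2 units with standard errors, for the 37 tested genes; left HIF2a sg4 and sg6, right USP37 sg3 and sg9, with the line of equal change dashed. Filled points mark genes whose guides differ at an adjusted p under 0.05, 9 on the left and 10 on the right; each pair of guides shares its control libraries, so the axes are not independent.

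Between HIF2a sg6 and sg4, 8 genes were higher with sg6 and 1 lower (24.3%, against 9.22% of all tested genes, 4.86% higher and 4.36% lower), and no control enters this comparison. Libraries of sg4 and sg6 with the same number deviated together (correlations 0.107, 0.152 and 0.212), and with the library number as a block 7 genes were called, PFKFB3 (adjusted p = 0.0631) and PCK2 (adjusted p = 0.0895) no longer among them. HK2 differed by 0.57 (SE 0.09, limma adjusted p = 0.000289), with -0.73 for sg4 and -0.16 for sg6 against the control. Brain-type phosphorylase PYGB was 0.49 higher with sg6 (limma adjusted p = 0.00302), LDHB 0.41 (limma adjusted p = 0.00481), MPC2 0.42 (limma adjusted p = 0.0137) and PFKFB3 0.28 (limma adjusted p = 0.0307). Libraries 2 and 3 of sg6 are among the outlying ones, and without the 3 outlying libraries, with 1 sg6 library against 3 of sg4, 4 genes were called, with LDHB (0.37, adjusted p = 0.0684), PFKFB3 (0.21, adjusted p = 0.347), PFKFB4, PFKL and PCK2 no longer among them. Leaving out single libraries also ended the MPC2 call (sg4 library 2, adjusted p = 0.0516, or 3, 0.069) and the PFKFB3 call (any sg4 library or sg6 library 3, adjusted p from 0.0594 to 0.127).

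Between USP37 sg9 and sg3, 6 genes were higher and 4 lower with sg9 (27.0%, against 30.8% of all tested genes, 16.6% higher and 14.2% lower). Besides MPC2 and SLC16A3, PGK1 (0.44, limma adjusted p = 0.00227), TPI1 (0.33, limma adjusted p = 0.00573), LDHB (0.29) and PGAM1 (0.28) were higher, and GYS1 (-0.37, limma adjusted p = 0.0052), SLC2A1, HK2 (-0.27) and HK1 (-0.26) lower. Without sg9 library 3 the count was 5 in place of 10, and LDHB (adjusted p = 0.102), PGAM1 (0.17, adjusted p = 0.264), HK1 (adjusted p = 0.117), HK2 (adjusted p = 0.0737) and SLC2A1 were no longer called.

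The scrambled controls differed for 18 of the 37 genes, 12 higher and 6 lower in the USP37 control (48.6%, against 40.5% of all tested genes, 20.1% higher and 20.4% lower), and control and experiment cannot be told apart. The widest gaps were SLC16A3 (-1.36), PFKFB3 (0.89), PFKFB4 (-0.85), MPC1 (0.83), PDK1 (0.67) and TXNIP (0.66). Without USP37 sgscr library 2 the count was 10, but SLC16A3, PFKFB3, PFKFB4, MPC1 and PDK1 were called whichever library was left out. Of the 20 genes called with the HIF2a guides, the controls were called apart in the direction of the effect for 3 (PFKFB3, PDK4 and PGK1), and not called apart for 13, SLC2A1, GBE1, PFKP, HK2 and ARRDC4 among them. Of the 21 genes called with the USP37 guides, a control high or low in the direction that gives the effect was called for 9 (PFKFB3, ENO2, PDK2, TXNIP, SLC2A3, PKM, GPI, PFKFB2 and SLC16A3), and the controls were not called apart for 12. How much a control that stands apart adds to these effects was not tested.

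**Figure D4:**
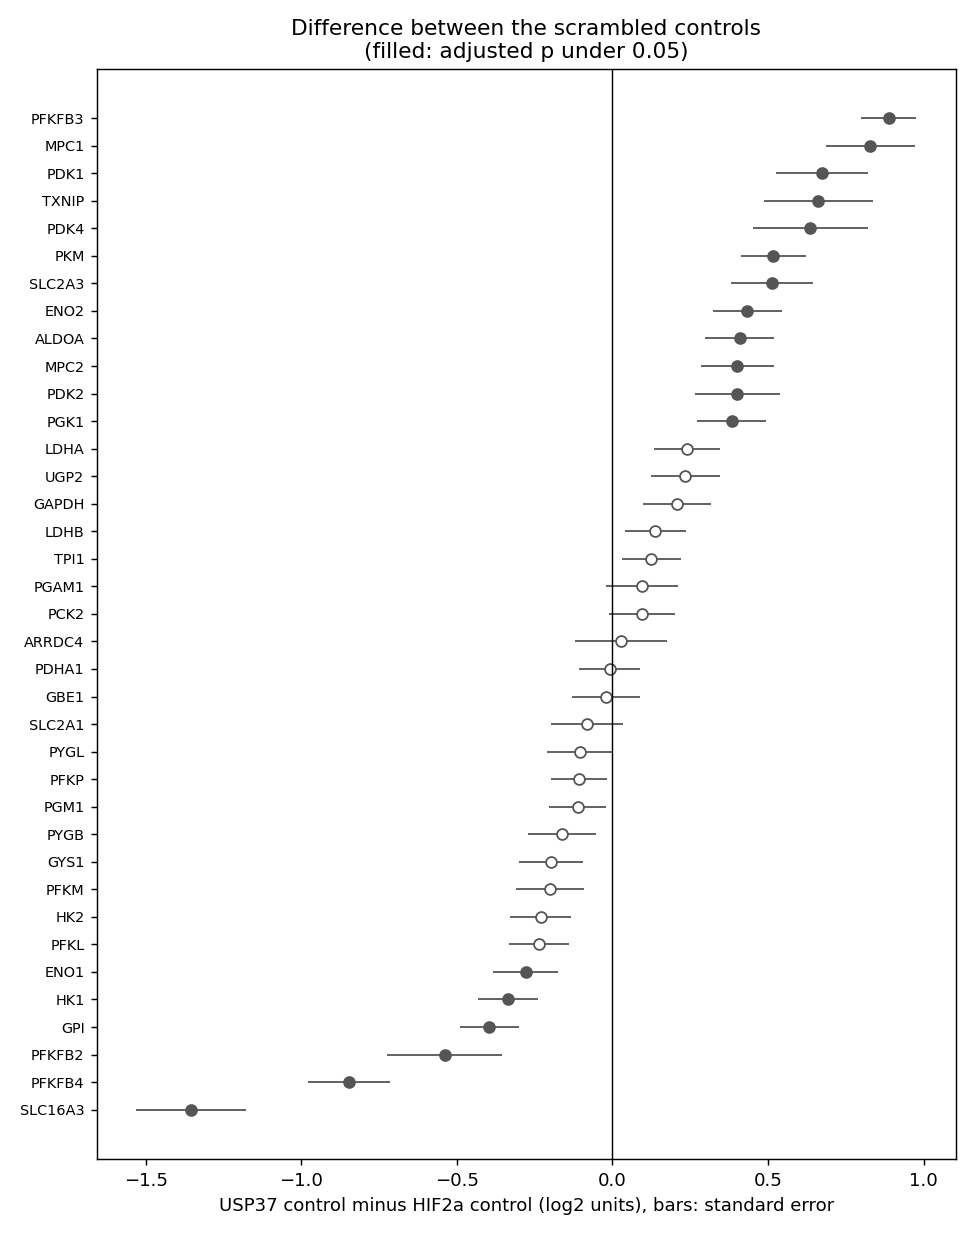
Difference between the scrambled controls of the experiments (USP37 control minus HIF2a control, log2 units, bars are standard errors) for the 37 tested genes, ordered by size. Filled points have an adjusted p under 0.05, 12 to the right and 6 to the left of 0, from PFKFB3 at 0.89 to SLC16A3 at -1.36.

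Other genes of the pathway, 101 in 6 lists of which 72 were tested, were more often higher than lower with the HIF2a guides (25 and 6 called, or 43.1%, against 30.6% of all tested genes). With the USP37 guides 14 were higher and 18 lower (44.4%, the share over all tested genes being 44.3%). Of 12 tested glucose transporters and glycolytic isozymes outside the 37, 7 rose and none fell with the HIF2a guides (58.3%, median 0.27). The largest rises were in the lysosomal transporter SLC2A6 (0.55), muscle enolase ENO3 (0.53) and BPGM (0.50), which makes bisphosphoglycerate. The USP37 guides raised 2 and lowered 4 (50%, against 44.3%). The largest changes were in TIGAR, a phosphatase that lowers fructose bisphosphate (0.78), and the transporter SLC2A12 (-0.72). Of 14 tested pyruvate, lactate and gluconeogenesis genes, 10 rose and 1 fell with the HIF2a guides (78.6%, median 0.37). The monocarboxylate transporter SLC16A7 fell (-0.76), while the glucose phosphatase G6PC3 (0.61) and the pyruvate dehydrogenase phosphatase PDP1 (0.60) rose. The USP37 guides raised 3 and lowered 3 (42.9%, against 44.3%). SLC37A4, which carries glucose phosphate into the endoplasmic reticulum, was 0.52 with the HIF2a guides and -1.42 with the USP37 guides, a difference of -1.93 (SE 0.15, limma adjusted p = 3.72e-09). Its USP37 control lay 0.47 above its HIF2a control (limma adjusted p = 0.00622), in the direction of both effects. How much that gap adds to them was not tested.

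Of 20 tested glycogen genes outside the 37, 4 rose and 2 fell with the HIF2a guides (30%, near the 30.6% of all tested genes), the largest change being in GAA, the lysosomal enzyme that degrades glycogen (0.97, SE 0.09, limma adjusted p = 1.72e-08). With the USP37 guides 1 rose and 7 fell (40%, against 44.3%), among them PPP1R3B (-0.95) and PPP1R3C (-0.73), which target a phosphatase to glycogen, and PGM2L1 (-0.61). None of 8 tested pentose phosphate genes was called by limma with the HIF2a guides, where 2 had an unadjusted p under 0.05. The guides went apart there: 3 were called higher with sg6 against the control, PGD at 0.28 among them, TKT was called lower with sg4 (-0.36), and 4 of the 8 were called higher with sg6 than with sg4 (50%, against 9.22% of all tested genes). With the USP37 guides 3 rose and 3 fell (75%, against 44.3%). RPIA (0.58), the ribose 5-phosphate isomerase, was the largest rise, and the transketolase TKT (-0.41) was among the falls. Of 16 citric acid cycle genes, 4 rose and 2 fell with the HIF2a guides (37.5%, against 30.6% of all tested genes), among them OGDH (0.47) and FH (-0.35). With the USP37 guides 4 rose and 1 fell (31.2%, against 44.3%), where IDH3B (0.53) and SDHB (0.43) were higher and SDHA (-0.41) lower. RNA levels do not give enzyme activity, flux or glucose uptake, which were not measured here.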

How the data were processed

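Polyadenylated RNA of 17 libraries in 6 groups, taken from the titles, was sequenced as paired reads of 150 bases, per the labels' protocols. The authors' deposited values are variance-stabilised, on a log2 scale, and batch-corrected. Named without roles or order, per the submitters' processing notes, are DESeq2, Salmon, STAR 2.5.2b, cutadapt and the build hg19. What the batches were, and the tool that corrected for them, is not given in the sources used here. In each gene the libraries numbered 1, 2 and 3 had the same mean (largest gap 6.4e-14), which shows that the library number had been regressed out. The p-values tend to be too small because the 11 residual degrees of freedom ignore it. As the USP37 control has no library 1, equal means can also carry group differences into other libraries. CD3E was at 6.78 in USP37 sgscr library 3, 4.94 in the other libraries numbered 3 and 5.25 in the rest. The effect of this on the comparisons was not tested. Read counts and depth are unknown.

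Genes whose mean was at least 1 above the floor of 5.14 were tested (12484 of 27315) with limma 3.58.1 in R 4.3.3, with 1 mean per group, empirical Bayes moderation with a trend, and Benjamini-Hochberg adjustment over all tested genes within a comparison. The median standard error was 0.104 for the HIF2a guides and 0.12 for the USP37 guides. The script was tested on simulated data. Alternatives were other filters, no trend, robust moderation, array weights, a replicate block, equal library medians, quantile normalization, chromosome medians taken out, each experiment fitted alone, each library left out and, chosen after seeing the data, 3 libraries far from their groups left out. The members and lists were chosen with earlier results of these data known. Values in every library are given for members called both in the average of a pair of guides and for each guide singly, in the same direction and by at least 0.5 log2 units, in at least 1 experiment, and also for SLC16A3 and MPC2, which were chosen after their values were seen. From the other lists up to 3 called genes of largest change are named, except some genes not reported here. Promoter sequences are RefSeq's, on GRCh38.p14 (37 of the 39 members matched), trimmed to end before the first GENCODE 29 start within the window; a stretch inside an annotated exon is not printed.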

Additional observations from a re-analysis of the deposited data

Results flagged for a closer look

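The effect of the USP37 guides against their control differed from the effect of the HIF2a guides against theirs, by limma's test of that difference, for 8 of the 37 genes, a smaller share than over all tested genes (21.6% against 38.6%). Each value here is the USP37 effect minus the HIF2a effect, in log2 units.

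PFKFB3 was lowered by the USP37 guides and raised by the HIF2a guides, a difference of -1.98 (limma adjusted p = 1.12e-11). SLC2A1 was lowered by both and less by the USP37 guides, a difference of 1.15 (limma adjusted p = 1.74e-06). For ENO2 (-0.811, limma adjusted p = 6.45e-05) and PDK2 (-0.846, limma adjusted p = 0.000358) only the USP37 effect was called. PFKL was lower with the USP37 guides than with the HIF2a guides, a difference of -0.65 (limma adjusted p = 0.000157); with the HIF2a guides its call ended without any 1 of 12 libraries, and the sg6 libraries overlapped the control. For PDK4 (-1.04, limma adjusted p = 0.000814), GYS1 (-0.536, limma adjusted p = 0.00161) and PYGB (-0.429, limma adjusted p = 0.0131) only the rise with the HIF2a guides was called, although PDK4 and GYS1 were called lower with the USP37 guides under some alternatives. The controls of the experiments themselves were called apart for PFKFB3, ENO2, PDK2 and PDK4, and not for SLC2A1, PFKL, GYS1 and PYGB.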

How the results depend on the processing

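Of 10276 values of single members under the alternatives, 9853 stayed on their side of the threshold, 261 lost a call and 162 gained one. No value changed sign where it was called as reported or under the alternative. Uncalled values that changed sign count among the 9853, such as PFKFB4 with the HIF2a guides (-0.15, and 0.08 with chromosome medians taken out). With any 1 library left out, the counts of called members ranged from 9 to 12 higher and 7 to 10 lower with the HIF2a guides, 2 to 8 higher and 11 to 16 lower with the USP37 guides, 7 to 10 for the difference of the effects, 6 to 10 between the HIF2a guides, 5 to 10 between the USP37 guides and 10 to 19 between the controls. Taking out chromosome medians raised the count for the difference of the effects from 8 to 14; the cause was not tested. Leaving out the 3 libraries far from their groups lowered the count between the HIF2a guides from 9 to 4, with 1 library of sg6 remaining. With the replicate block, 11 members were higher and 7 lower with the HIF2a guides (PFKL and LDHA were lost, at adjusted p 0.075 and 0.055), 7 higher and 14 lower with the USP37 guides, 8 for the difference of the effects, 7 between the HIF2a guides, 8 between the USP37 guides and 18 between the controls. Of 40 pairs with the same number 6 had a correlation of deviations over 0.1 (range -0.547 to 0.222), among them all 3 of HIF2a sg4 and sg6; the regressed-out number forces such deviations to sum to 0, so low correlations do not show whether libraries were paired. The unknown depth leaves the counting error of weakly expressed genes, PDK4 and ARRDC4 among them, without a bound.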
